A study of Mus musculus with 6 samples.

Results

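The 6 actin genes of the mouse, Acta1, Actc1, Acta2, Actg2, Actb and Actg1, were taken by symbol from an array series on C2C12 cells. All 6 were measured among 22180 genes. C2C12 is a mouse myoblast line that fuses into myotubes when serum is withdrawn. Pooled small interfering RNAs (siRNAs) to Htt, the gene of huntingtin, were given to the cells of 3 arrays, and scramble siRNA to the control cells of 3 more. The labels call the treated cells HTT KO, while the design text describes a knockdown by siRNA, and the name Htt siRNA is used here. They also call the line myoblastoma, and give neither a time after transfection nor separate cultures for the replicates. The p-values therefore reflect only how far these arrays differ, and that spread may be technical. The title asks how huntingtin bears on muscle differentiation in culture.

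Each value is a deposited RMA value on the log2 scale, where 1 unit is a doubling of signal. For each gene the brightest probe set (a group of probes summarised to 1 value) that the platform annotation gives to that gene alone was used. Differences are Htt siRNA minus scramble, given as a log2 fold change ± its standard error (SE) from limma, and adjusted p-values cover all 22180 genes. At an adjusted threshold of 0.05 limma called 0 genes, while 2409 had an unadjusted p under 0.05. The deposited arrays correlated with r between 0.981 and 0.991 over probe sets, which are not independent replicates. With 3 arrays per group, precision is limited by their number. Htt was at 4.49, 4.47 and 4.65 after Htt siRNA, against 5.59, 5.60 and 5.72 with scramble, so the labels held for the targeted gene (log2 fold change -1.10 ± 0.09, adjusted p = 0.0559).

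Actin forms the thin filaments of muscle and the microfilaments of all cells. Mammals use separate genes for skeletal (Acta1) and cardiac (Actc1) alpha-actin, for vascular (Acta2) and enteric (Actg2) smooth muscle actin, and for the beta (Actb) and gamma (Actg1) actin of the cytoplasm. Their proteins are almost identical. Cultured myoblasts contain mainly the cytoplasmic isoforms, and when they differentiate the sarcomeric genes are switched on, Actc1 early and strongly. Many actin genes are controlled by serum response factor (SRF), which binds the CArG box, and by its cofactors of the MRTF family, which bind actin monomers.

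The 3 classes of actin genes differed in size of change. Actc1 and Acta1 were 4.61-fold and 2.54-fold higher after Htt siRNA, Actg2 and Acta2 1.52-fold and 1.34-fold higher, and Actb and Actg1 lay at 1.03 and 0.89 times scramble. For the first 4 of these, each Htt siRNA array lay above each scramble array. For Actb and Actg1 the arrays of both groups overlapped. In limma 0 of the 6 passed the adjusted threshold, as did 0% of all genes. An unadjusted p under 0.05 was reached by 4 members (10.9% of all genes in either direction), and these 4 were all higher (5.72% of all genes). The same 4 had no overlap between groups, which 16% of all genes showed in either direction, 10.1% as higher and 5.91% as lower.

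Promoters of the actin genes are shown because SRF, through the CArG box, is a known common regulator of the family. The RefSeq promoter table held 4 of the 6 members, each with 1 window. The 250 bases before the transcript start that the table gives are printed 5′ to 3′ on the minus strand, in build GRCm38.p6. Capitals mark CArG boxes, read as CC, then 6 middle bases, then GG, with at least 5 of the 6 being A or T. Allowing 5 was decided after the sequences were seen.
Acta1, chr8:123894776-123895025: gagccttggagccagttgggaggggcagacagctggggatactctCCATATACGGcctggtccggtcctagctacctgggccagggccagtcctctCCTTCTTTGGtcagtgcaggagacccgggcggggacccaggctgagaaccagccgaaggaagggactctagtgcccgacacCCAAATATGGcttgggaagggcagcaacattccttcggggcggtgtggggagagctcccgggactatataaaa
Actc1, chr2:114052876-114053125: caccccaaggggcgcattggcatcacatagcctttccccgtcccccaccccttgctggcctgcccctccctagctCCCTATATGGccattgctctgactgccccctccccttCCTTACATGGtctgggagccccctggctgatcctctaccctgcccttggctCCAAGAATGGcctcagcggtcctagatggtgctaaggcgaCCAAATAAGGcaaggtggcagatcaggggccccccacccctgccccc
Acta2, chr19:34255374-34255623: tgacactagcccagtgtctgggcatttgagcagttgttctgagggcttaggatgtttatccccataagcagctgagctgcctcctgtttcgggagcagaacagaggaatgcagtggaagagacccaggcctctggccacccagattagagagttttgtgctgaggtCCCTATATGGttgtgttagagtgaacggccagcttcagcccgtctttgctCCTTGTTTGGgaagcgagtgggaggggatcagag
Actg1, chr11:120348496-120348745: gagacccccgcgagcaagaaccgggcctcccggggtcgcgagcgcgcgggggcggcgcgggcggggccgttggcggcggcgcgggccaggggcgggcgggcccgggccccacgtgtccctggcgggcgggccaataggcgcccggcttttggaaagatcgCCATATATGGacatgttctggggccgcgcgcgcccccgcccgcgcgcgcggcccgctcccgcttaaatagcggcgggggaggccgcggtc

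A CArG box with all 6 middle bases A or T was found once each in Acta1, Actc1 and Actg1. It was CCAAATATGG in Acta1, 73 to 64 bases before the start. In Actc1 it was CCAAATAAGG, 47 to 38 bases before the start. In Actg1 it was CCATATATGG, 90 to 81 bases before the start. Acta2 held 0 of the strict form, and its matches with 5 of 6 were CCCTATATGG and CCTTGTTTGG. With the looser form included, Actc1 held 4 matches, Acta1 3, Acta2 2 and Actg1 1. Of 32851 promoter windows of the same length, 1.47% held the strict form and 8.59% the looser one. The pattern reads the same on both strands, so 1 search covered both.

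**Figure D1:**
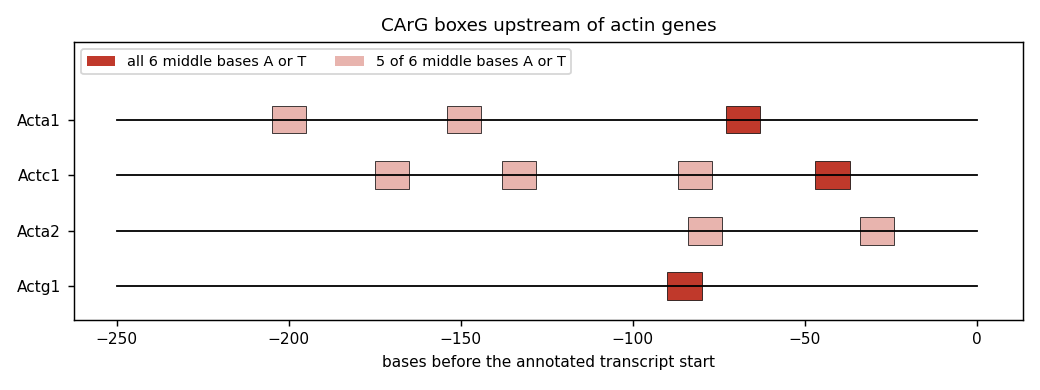
Positions of CArG boxes in the 250 bases before the annotated transcript start of 4 actin genes. The horizontal axis is the distance from the start in bases, dark boxes have all 6 middle bases A or T and light boxes 5 of 6. Actc1 holds 4 boxes, Acta1 3, Acta2 2 and Actg1 1.

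A further pair of motifs was searched on both strands in the same windows. The E-box CANNTG, a general form that includes sites of myogenic factors such as MyoD and myogenin, was found 2 times in Acta1 and 3 times in Acta2. It was found once in Actg1, as CACGTG, and 0 times in Actc1, and in 66.2% of all windows. Acta1 and Acta2 each held CAGCTG among their matches. Which of these forms a myogenic factor binds was not tested. CATTCC or its reverse complement, the core bound by TEAD factors, was found once each in Acta1 and Acta2, and 0 times in Actc1 and Actg1, against 12.6% of all windows. A match is only a run of letters, and a window without one says nothing of the factor. Whether any of these motifs bears on the changes after Htt siRNA was not tested.

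Actc1 encodes the cardiac alpha-actin that embryonic skeletal muscle also uses. Its log2 values were 6.02, 4.45 and 5.67 in the Htt siRNA arrays of replicates 1, 2 and 3, against 3.03, 2.90 and 3.59 in the scramble arrays. Htt siRNA replicate 2 was the lowest of the knockdown arrays, yet it stood 0.86 above the highest scramble array. The mean was 5.38 ± 0.82 after Htt siRNA and 3.17 ± 0.37 with scramble (SD, n = 3 each). The log2 fold change was 2.21 ± 0.38 (SE), with a 95% interval of the fold from 2.49 to 8.54 and an adjusted p of 0.181 in limma. This was rank 2 of 22180 genes by size of positive change and rank 59 by p. The scramble values lay near 2.95, the median gene mean, where RMA compresses weak signals, so the fold may be understated.

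Acta1 encodes the alpha-actin of adult skeletal muscle. Its values were 6.54, 5.69 and 6.31 after Htt siRNA, against 4.90, 4.55 and 5.05 with scramble. The groups were 0.63 apart at their nearest arrays, and replicate 2 was again the lowest knockdown array. The mean was 6.18 ± 0.44 after Htt siRNA and 4.83 ± 0.25 with scramble (SD, n = 3 each). The log2 fold change was 1.35 ± 0.23 (SE), rank 12 of 22180 from the highest, with an adjusted p of 0.174 in limma. The 95% interval of the fold ran from 1.77 to 3.65.

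The calls of both sarcomeric actins depended on which arrays were used. Without Htt siRNA replicate 2, Actc1 had a log2 fold change of 2.67 ± 0.21 and Acta1 one of 1.59 ± 0.16, and both then passed, each with a limma adjusted p of 0.00778. That array set called 540 genes in all. With any other array left out, their adjusted p lay between 0.293 and 0.624. The arrays of replicates 1 and 3 held 7.20 and 5.62 times the scramble mean of Actc1, and replicate 2 held 2.42 times. For Acta1 the same arrays held 3.27, 2.78 and 1.80 times. Htt itself was reduced about equally in the 3 arrays, to 45.2%, 50.3% and 44.4% of the scramble mean in replicates 1, 3 and 2.

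**Figure D2:**
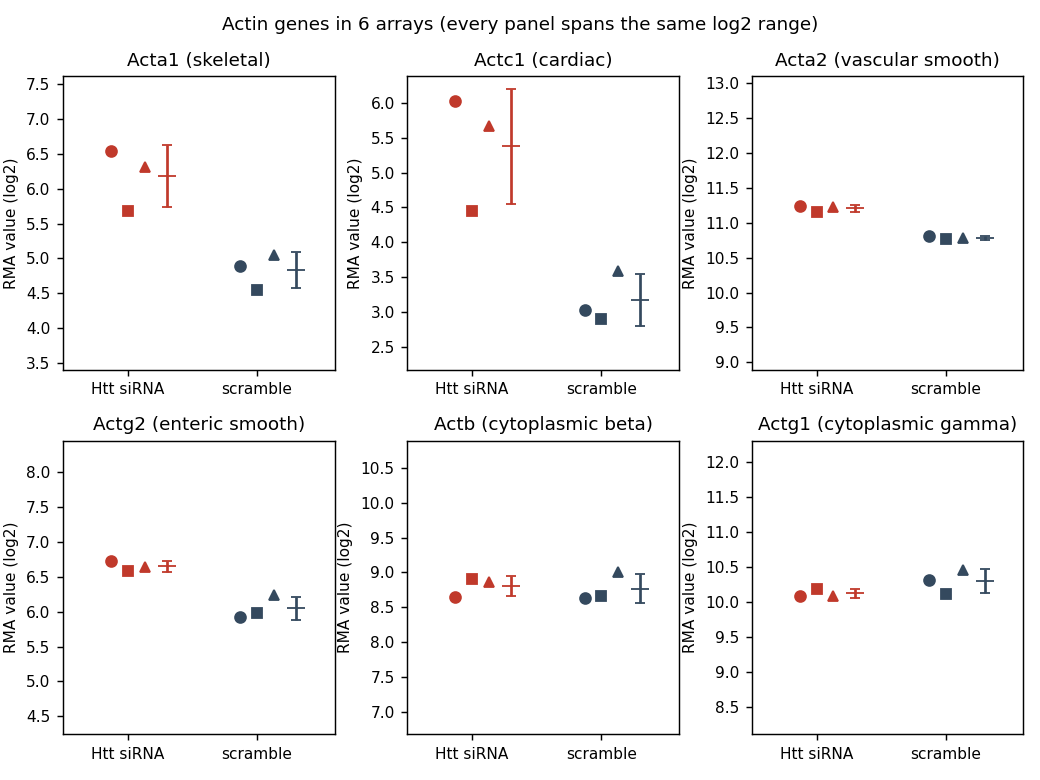
Log2 RMA values of the 6 actin genes in each array, with mean and SD beside the points (n = 3 per group). Circles, squares and triangles are replicates 1, 2 and 3, and every panel spans the same range. Actc1 and Acta1 show the widest separation and the widest spread within the Htt siRNA group.

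Among the smooth muscle isoforms, Actg2, the gamma-actin of the gut wall and other visceral muscle, had values of 6.73, 6.58 and 6.64 after Htt siRNA, against 5.92, 5.99 and 6.23 with scramble. The 3 knockdown arrays lay close together and 0.34 above the highest scramble array. The mean was 6.65 ± 0.08 after Htt siRNA and 6.05 ± 0.17 with scramble (SD, n = 3 each), and the log2 fold change was 0.60 ± 0.11 (SE, limma adjusted p = 0.184). Without Htt siRNA replicate 2 it was 0.64 ± 0.12 with a limma adjusted p of 0.0465.

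Acta2, the alpha-actin of vascular smooth muscle that fibroblasts and myoblasts in culture can also make, had the tightest values of the 6 genes. They were 11.24, 11.15 and 11.23 after Htt siRNA, against 10.81, 10.77 and 10.78 with scramble. The lowest knockdown array lay 0.34 above the highest scramble array. The mean was 11.21 ± 0.05 after Htt siRNA and 10.79 ± 0.03 with scramble (SD, n = 3 each). The log2 fold change was 0.42 ± 0.08 (SE), a 1.34-fold difference with a 95% interval from 1.18 to 1.52, and the adjusted p was 0.204 in limma. It did not pass under any of the alternatives, where its adjusted p lay between 0.0569 and 0.624.

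The cytoplasmic isoforms gave no separation. Actb, the beta-actin often used as a reference gene, had values of 8.65, 8.91 and 8.87 after Htt siRNA, against 8.63, 8.67 and 9.00 with scramble. Its highest and lowest arrays were both scramble arrays. The mean was 8.81 ± 0.14 after Htt siRNA and 8.77 ± 0.20 with scramble (SD, n = 3 each). The log2 fold change was 0.04 ± 0.13 (SE, limma adjusted p = 0.93), and the 95% interval of the fold ran from 0.84 to 1.26. The sign turned when arrays were centred on their medians (-0.02), so no direction is given for this gene.

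Actg1, the gamma-actin of the cytoplasm, had values of 10.09, 10.19 and 10.09 after Htt siRNA, against 10.31, 10.12 and 10.46 with scramble. Scramble replicate 2 lay between the knockdown arrays, while the other scramble arrays were above all of them. The mean was 10.12 ± 0.06 after Htt siRNA and 10.30 ± 0.17 with scramble (SD, n = 3 each). The log2 fold change was -0.17 ± 0.11 (SE, limma adjusted p = 0.591), with a 95% interval of the fold from 0.75 to 1.05.

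**Figure D3:**
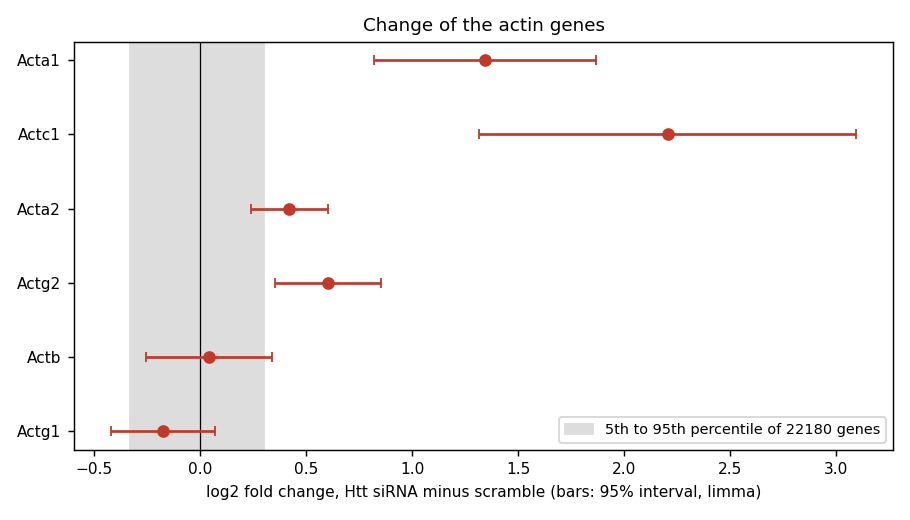
Log2 fold changes of the 6 actin genes, Htt siRNA minus scramble, with 95% intervals from limma. The grey band holds the 5th to 95th percentile of all 22180 genes (-0.33 to 0.30). Actc1 (2.21) and Acta1 (1.35) lie far outside it, Actg2 and Acta2 just outside, and Actb and Actg1 inside.

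Actg1 was the member with several probe sets of its own, 6 in all, while each of the other 5 had 1. Probe sets 17331429 and 17500992 held identical values in every array, so the 6 gave 5 distinct profiles, and they count as 1 measurement. Averaged over the arrays, the probe sets lay between 4.77 and 10.21. All 6 had a negative log2 fold change, from -0.28 (17548348) to -0.07 (17273061), and the smallest unadjusted p among them in limma was 0.13. The probe sets did not follow the same pattern over arrays. In 17547608 Htt siRNA replicate 1 was the lowest array at 8.28, against 9.01 and 9.17 in replicates 2 and 3, and the scramble arrays were at 9.01, 8.63 and 9.55. In the brightest probe set that array was level with replicate 3. Mammalian genomes hold many processed copies of cytoplasmic actin genes, and the sequences of the probes were not used here. How far any actin probe set also reads another isoform or such a copy was not tested.

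**Figure D4:**
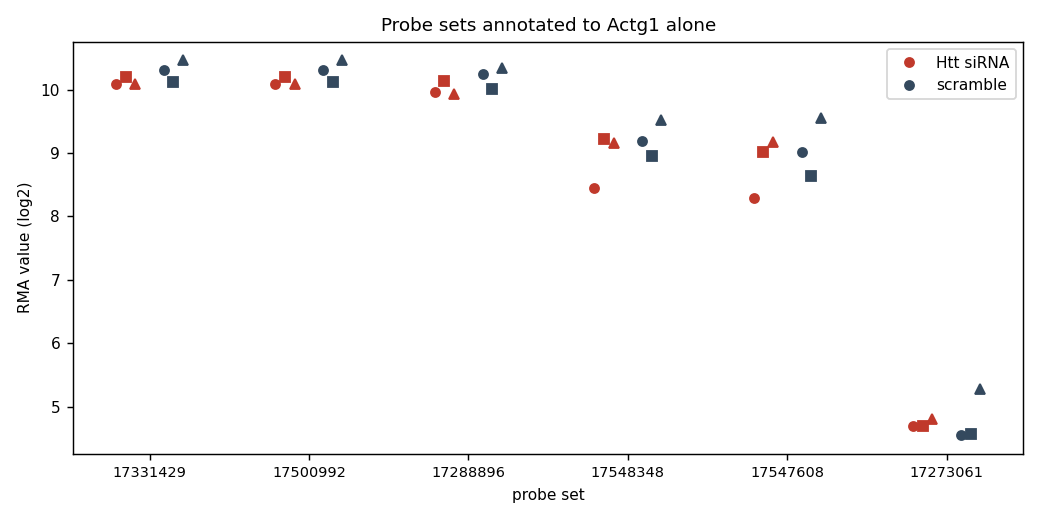
Log2 RMA values of the 6 probe sets annotated to Actg1 alone, with the Htt siRNA arrays left of the scramble arrays and circles, squares and triangles for replicates 1, 2 and 3. Mean values span 4.77 to 10.21, and in each probe set the arrays of both groups overlap.

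Levels of different probe sets cannot be set against each other, so the balance between isoforms was followed as a change. Each gene was first expressed relative to its own mean over the 6 arrays, and classes were then subtracted within each array. Because the members were chosen with results known, these differences carry no p. The balance of sarcomeric (Acta1 and Actc1) over cytoplasmic actins (Actb and Actg1) was 1.52, 0.12 and 1.12 in Htt siRNA replicates 1, 2 and 3, against -0.90, -1.06 and -0.80 in the scramble arrays. All 3 knockdown arrays were above all 3 scramble arrays, and replicate 2 was well below the others of its group. The group means were 0.92 ± 0.72 after Htt siRNA and -0.92 ± 0.13 with scramble (SD, n = 3 each), a shift of 1.84 log2 units or 3.58-fold.

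The balance of smooth muscle (Acta2 and Actg2) over cytoplasmic actins shifted less. It was 0.44, 0.14 and 0.29 in the Htt siRNA arrays, against -0.28, -0.19 and -0.40 in the scramble arrays. The groups did not overlap, and the shift was 0.58 log2 units (0.29 ± 0.15 after Htt siRNA, -0.29 ± 0.10 with scramble, SD, n = 3 each). Sarcomeric over smooth muscle actins stood at 1.08, -0.02 and 0.83 in the Htt siRNA arrays, against -0.63, -0.87 and -0.40 with scramble, a shift of 1.26.

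**Figure D5:**
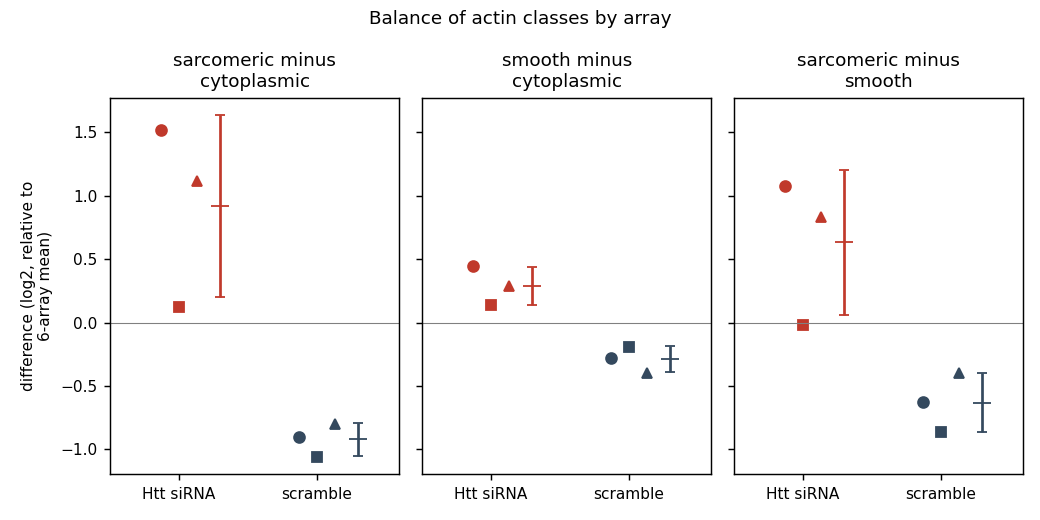
Balance of actin classes in each array, as differences of log2 values with each gene relative to its own 6-array mean; mean and SD stand beside the points (n = 3 per group), and circles, squares and triangles are replicates 1, 2 and 3. The shifts between groups are 1.84, 0.58 and 1.26 log2 units from left to right.

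Within the classes the isoforms did not move by the same amount. Actc1 minus Acta1 was 0.71, -0.01 and 0.58 in the Htt siRNA arrays, against -0.64, -0.42 and -0.23 with scramble. Actc1 thus gained 0.86 log2 units over Acta1, with no overlap between groups and replicate 2 nearest to scramble. The Actc1 scramble values lay near the median gene mean, where RMA compresses weak signals, so the size of this difference is uncertain. Actg1 minus Actb was 0.02, -0.14 and -0.20 in the Htt siRNA arrays, against 0.26, 0.03 and 0.03 with scramble, a shift of -0.22, or -0.14 without scramble replicate 1. These groups nearly touched. Acta2 minus Actg2 shifted by -0.18, with overlapping arrays, and by -0.10 and -0.28 without scramble replicates 1 and 3.

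Among the 6 members, the patterns over arrays had the smallest distances within the smooth muscle pair and within the cytoplasmic pair. The measure was the root mean square difference of log2 values over 6 arrays, with each gene relative to its own mean, so a smaller number is a closer match. It was 0.14 between Acta2 and Actg2 and 0.15 between Actb and Actg1. Acta1 and Actc1 were 0.50 apart, and Acta1 lay slightly nearer to Actg2 (0.45). The measure takes in the size of a change as well as its shape, so genes that change little lie near many genes. The median distance to the genes ranked below was 0.22 for Actb and 0.20 for Actg1, against 0.75 for Acta1 and 1.23 for Actc1. The distances of the pairs are therefore not comparable as closeness of pattern. Actc1 and Actg1 were the farthest apart, at 1.30.

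By the same measure, genes outside the family were ranked among the 10575 with a mean at or above the median and an assigned name, leaving out Gm, LOC and Rik symbols. The nearest to Acta1 were Neb (0.10), which encodes the giant thin filament protein nebulin, Ccn3 (0.16), a secreted matricellular protein, and Sgca (0.16), alpha-sarcoglycan of the muscle membrane. The median over the genes ranked was 0.75. The nearest to Actc1 were the fast troponin gene Tnnt3 (0.24), the fast myosin light chain gene Mylpf (0.29) and the fusion gene Mymk (0.30), against a median of 1.23. Neb stood at 4.50, 3.60 and 4.06 after Htt siRNA, against 2.84, 2.64 and 2.93 with scramble. Like Acta1 it was highest in Htt siRNA replicate 1 and lowest in scramble replicate 2.

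Acta2 was nearest to Cd82 (0.04), a tetraspanin of the cell surface, Tcte1 (0.05) and Ostm1 (0.06), and Actg2 to the caveolar gene Cavin2 (0.06), Cand2 (0.07) and the adhesion gene Ncam1 (0.07). Actb was nearest to Selenon (0.03), Mfsd4a (0.03) and the proteasome gene Psmc3 (0.04), and Actg1 to Rpap1 (0.02), Tnrc18 (0.04) and Gstm1 (0.04). The median over the genes ranked was 0.27 for Acta2, 0.36 for Actg2, 0.22 for Actb and 0.20 for Actg1.

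Genes of terminal muscle differentiation were set beside the sarcomeric actins. The list was chosen with earlier results of these data known. It includes Tnnt3, Mylpf and Mymk, named above as nearest to Actc1, so its counts are not separate from that ranking. The 20 measured genes of terminal muscle differentiation had a mean level of 5.18, 4.47 and 5.12 after Htt siRNA, against 4.06, 3.62 and 4.12 with scramble. Htt siRNA replicate 2 was the lowest knockdown array here as for Actc1 and Acta1. In limma, 16 of the 20 were higher and 0 lower at an unadjusted p under 0.05, where 5.72% of all genes were higher. After adjustment 0 passed, and the median log2 fold change was 0.79, against 0.03 over all genes. Myog, the transcription factor that starts terminal differentiation, was at 7.73, 6.22 and 7.71 after Htt siRNA, against 4.53, 3.97 and 5.11 with scramble. The log2 fold change was 2.68 ± 0.44 for Myog, 2.11 ± 0.33 for Mymk and 1.84 ± 0.37 for Tnnt3. In bulk samples, more cells of a type and more RNA per cell cannot be told apart.

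Division and stress genes also differed between the knockdown arrays. The 19 measured cell division genes had a mean level of 6.25, 7.60 and 6.54 after Htt siRNA, against 7.37, 7.99 and 7.79 with scramble, and at an unadjusted p under 0.05 in limma 17 were lower and 0 higher, where 5.14% of all genes were lower. That count was 4 and 3 without Htt siRNA replicates 1 and 3, and 3 and 5 without scramble replicates 2 and 3. Over all 22180 genes the lower counts in those settings were 687, 700, 821 and 783, against 1140 with all arrays. By the naming rule the 17 lower genes included Cdc6 (-1.29 ± 0.33), which loads the replicative helicase, and Mcm6 (-1.07 ± 0.32), a part of that helicase. The 19 unfolded protein and integrated stress response genes stood at 8.34, 6.59 and 8.40 after Htt siRNA, against 8.41, 6.69 and 7.14 with scramble. Of these, 0 had an unadjusted p under 0.05 in limma, or 8, all higher, without Htt siRNA replicate 2. That setting had 1731 of all 22180 genes higher, against 1269 with all arrays. With all arrays the smallest p among the 19 was that of the chaperone Dnajc3 (0.58 ± 0.39). With the stress level as a covariate, Actc1 was at 2.05 ± 0.30 (limma adjusted p = 0.0494) and Acta1 at 1.24 ± 0.16 (0.0392). The part of the division genes in the actin values was not tested.

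Markers of other cells were set beside the smooth muscle isoforms. Of 10 smooth muscle markers, Cnn1 and Casq2 had an unadjusted p under 0.05 in limma, both higher, where 5.72% of all genes were higher. Casq2 is also a sarcomeric muscle gene. Of the 10, 8 had a positive and 2 a negative log2 fold change, the lowest -0.17. Cnn1, Casq2, Myh11 and Myocd are named outside the rule. Myh11, the myosin that defines mature smooth muscle, was at 3.29, 3.24 and 3.52 after Htt siRNA, against 3.18, 3.32 and 3.15 with scramble, and its groups overlapped. Myocd, the smooth and cardiac muscle cofactor of SRF, was at 2.75, 2.89 and 2.97, against 3.01, 2.65 and 2.76 with scramble, near the median gene mean. The mean level of the list lay between 4.05 and 4.16 after Htt siRNA and between 3.81 and 3.96 with scramble. The fibroblast list lay between 4.65 and 4.72 after Htt siRNA, against 4.29 to 4.38 with scramble. At an unadjusted p under 0.05 in limma 3 of its 10 were higher and 1 lower, against 5.72% and 5.14% of all genes. The endothelial list lay between 2.31 and 2.47, against 2.25 to 2.30, and the macrophage list between 2.77 and 2.81, against 2.67 to 2.79. What part fibroblast markers had in the Acta2 and Actg2 values was not tested.

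All 10 myoblast markers had a mean at or above the median gene mean. Des, the muscle intermediate filament gene, was between 9.92 and 10.35 over the 6 arrays. Myod1, which commits cells to muscle, was at 6.27, 6.48 and 6.99 after Htt siRNA, against 5.36, 6.14 and 6.26 with scramble. Both are named outside the rule. Of the 10 markers, 8 had a positive and 2 a negative log2 fold change, the lowest -0.40. The myoblast list lay between 7.54 and 7.64 after Htt siRNA, against 7.21 to 7.46 with scramble. In limma 4 of 10 had an unadjusted p under 0.05, all higher, where 5.72% of all genes were higher. Chrna1, a marker named outside the rule, is also in the list of terminal muscle differentiation, so the lists are not separate.

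Genes that sense actin through MRTF and SRF were counted as a list. Of 20 measured, 1 was higher and 2 lower at an unadjusted p under 0.05 in limma, near the 5.72% and 5.14% of all genes, and 0 passed after adjustment. Srf, named after its value was seen, was at 6.88, 6.86 and 7.17 after Htt siRNA, against 6.63, 6.48 and 6.86 with scramble (0.31 ± 0.13), and its groups overlapped by a small margin. Elk3, an ETS partner of SRF, had the smallest p of the list (-0.42 ± 0.16), also with overlapping groups. The list had a median of 0.07. Its higher and lower counts were 0 and 0 without Htt siRNA replicate 1, and 3 and 3 without Htt siRNA replicate 2. In the latter setting 1731 of all 22180 genes were higher and 1720 lower, against 1269 and 1140 with all arrays. The counts of the list were 1 and 0 without Htt siRNA or scramble replicate 3, and 0 and 1 without scramble replicate 1 or 2.

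Cytoskeletal genes that SRF is known to drive were counted next. Of 23 measured, 6 had an unadjusted p under 0.05 in limma, all 6 higher, where 5.72% of all genes were higher, and 0 passed after adjustment. Myl9, the regulatory light chain of smooth and non-muscle myosin, was at 7.04, 7.06 and 6.91 after Htt siRNA, against 6.01, 5.69 and 6.18 with scramble (1.05 ± 0.13, adjusted p = 0.124). Its 3 knockdown arrays lay together, as those of Acta2 did. Tagln, the actin-binding protein SM22, had a log2 fold change of 0.61 ± 0.13, and Tpm2, a tropomyosin of muscle thin filaments, one of 0.54 ± 0.14. The list had a median of 0.13, or 0.046 and 0.061 without Htt siRNA replicates 2 and 3 and 0.063 without scramble replicate 2. Vcl, which encodes vinculin and is a usual SRF target, was at 0.13 ± 0.10, named after its value was seen.

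Among genes for thin filament ends, length and assembly, 8 of 20 measured were higher and 1 lower at an unadjusted p under 0.05 in limma, where 5.72% and 5.14% of all genes were, and 0 passed after adjustment. The list also holds genes tied to myosin, Unc45b, Smyd1, Mybpc1 and Mybpc2, so it is not of thin filaments alone. Unc45b and Smyd1 were among the 8 higher. Unc45b, Mybpc1 and Mybpc2 are named outside the rule. With dim genes dropped, 6 were higher and 0 lower. Neb had a log2 fold change of 1.25 ± 0.21. Klhl41, which protects nebulin, was at 4.15, 3.40 and 4.06 after Htt siRNA, against 3.05, 2.77 and 3.12 with scramble (0.89 ± 0.20). Smyd1, a muscle methyltransferase that binds myosin, had 0.32 ± 0.08. The lower member was the capping protein subunit Capza2 (-0.20 ± 0.08), named after its value was seen. Leaving out any array other than Htt siRNA replicate 2 brought the count of lower members to 0. The list had a median of 0.19.

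Genes of general actin dynamics had counts near the shares of all genes (5.72% higher, 5.14% lower). Of 25 measured for monomer binding and turnover, 1 was higher and 2 lower at an unadjusted p under 0.05 in limma. Limk1, the kinase that inactivates cofilin, was at 6.85, 7.14 and 7.05 after Htt siRNA, against 7.29, 7.36 and 7.42 with scramble (-0.34 ± 0.10). Ssh2, a phosphatase that reactivates cofilin, had -0.24 ± 0.10. The 2 lower became 1 without Htt siRNA replicate 1 or 3 or scramble replicate 2 or 3, and the 1 higher became 0 without Htt siRNA replicate 1 or scramble replicate 1 or 3. Of 33 nucleation and elongation genes, 0 were higher and 3 lower, among them the WAVE subunit Wasf1 (-0.37 ± 0.13) and the nucleator Spire2 (-0.33 ± 0.12). The 3 lower became 0 without Htt siRNA replicate 1 or scramble replicate 1 or 2, and 1 without Htt siRNA replicate 3. They became 5, with 2 higher, without Htt siRNA replicate 2. In that last setting 1731 of all 22180 genes were higher and 1720 lower, against 1269 and 1140 with all arrays. Without scramble replicate 3 the nucleation and elongation list had 1 higher and 2 lower. Both lists had medians close to that of all genes, at 0.01 and 0.02.

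Crosslinkers and anchors had counts near the shares of all genes (5.72% higher, 5.14% lower). Of 22 measured, 2 were higher and 1 lower at an unadjusted p under 0.05 in limma, with a median of 0.01. The counts were 4 and 2 once Htt siRNA replicate 2 was dropped. In that setting 1731 of all 22180 genes were higher and 1720 lower, against 1269 and 1140 with all arrays. Actn3, the alpha-actinin of fast muscle Z-discs, was at 8.61, 8.42 and 8.72 after Htt siRNA, against 7.69, 7.28 and 8.07 with scramble (0.91 ± 0.19). Tln2, the talin of muscle attachment sites, had 0.35 ± 0.10. Ezr, which links actin to the membrane, was at 8.16, 8.42 and 8.27 after Htt siRNA, against 8.73, 8.68 and 8.82 with scramble (-0.46 ± 0.10), so each knockdown array was below each scramble array.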

How the data were processed

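Expression was measured on 6 Affymetrix arrays of C2C12 cells. The authors deposited log2 expression values for 41345 probe sets. Per the submitters' processing notes these were made with RMA, which corrects the background, normalizes by quantiles and summarises probes, and with affy, and the genome build is not given in the sources used here. Quantile normalization hides changes of total RNA, and RMA compresses weak signals. The table holds no detection calls.

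The platform annotation listed 25335 probe sets, 23521 with 1 gene symbol and 1814 with several. Of those with 1 symbol, 23328 matched a RefSeq table of GRCm38.p6 by Entrez identifier and 0 symbols changed. Among probe sets with 1 symbol, the one with the highest mean over the 6 arrays stood for each of 22180 genes.

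Limma 3.58.1 (lmFit and eBayes, R 4.3.3) tested Htt siRNA against scramble with the group as the only term, two-sided, with Benjamini-Hochberg adjustment over all genes at 0.05. It was tested on simulated data. Tables and plots used Python 3.11.15, pandas 2.3.3 and matplotlib 3.10.9. Lists are described by counts and medians. The members, gene lists and motifs were chosen with earlier results of these data known. The rule names Htt, the members, up to 3 genes per list with an unadjusted p under 0.05 and groups without overlap (or else the 1 with the smallest p), and the 3 nearest genes to each member, where genes with Gm, LOC or Rik symbols are skipped. Other genes are marked in the text. Alternatives left out each array, blocked on replicate number, repeated the normalization, centred arrays, dropped dim genes, averaged probe sets, weighted arrays, changed the variance prior, or added the stress level. Promoters came from RefSeq, build GRCm38.p6.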

Additional observations from a re-analysis of the deposited data

How the results depend on the processing

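Over all alternatives, Actc1 lay between 1.88 and 2.67, Acta1 between 1.16 and 1.59, Actg2 between 0.54 and 0.70, Acta2 between 0.36 and 0.45 and Actg1 between -0.26 and -0.09 in log2 fold change, each with its sign kept. Actb had values of -0.021 with arrays centred on their medians and -0.026 with array weights. Leaving out 1 array at a time gave -1.16 to -1.06 for Htt, -0.028 to 0.16 for Actb, 0 to 540 genes called and 1538 to 3451 genes with an unadjusted p under 0.05. It gave medians of 0.068 to 0.156 for the actin-related proteins, 0.046 to 0.19 for the SRF targets and -0.060 to 0.035 for the nucleation genes.

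In the titles, same-numbered arrays of the 2 groups share only a number. Their deviations from the group means correlated at 0.35, 0.36 and 0.01 for numbers 1, 2 and 3. Arrays of different numbers correlated between -0.43 and 0.22. Whether same-numbered arrays were handled together was not tested. With a replicate block 98 genes were called, with Htt at -1.10 (limma adjusted p = 0.0128), Actc1 at 2.21 (0.0281) and Acta1 at 1.35 (0.0171). Genes called numbered 3 with quantile normalization repeated, with centred arrays or with genes at or above the median mean, 1 with array weights, 4 with trend and robust and 52 with the stress covariate. Htt passed in each of these, at -1.04, -1.16, -1.10, -1.11, -1.10 and -1.11. With the stress covariate Actc1 was at 2.05 and Acta1 at 1.24. Dropping dim genes left 1362 with an unadjusted p under 0.05, from fewer genes tested, and a median of -0.0097 for the actin-related proteins. Centring moved the split at that p to 620 higher and 1893 lower, against 1269 and 1140 as deposited. It moved the medians of the actin-related proteins to 0.027, of MRTF and SRF sensing to 0.0052, of monomer binding to -0.055, of nucleation to -0.042, of crosslinkers to -0.047 and of folding to -0.10. Beyond these the cause was not tested, and no array gives a detection call, so weak probe sets cannot be told from background.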

Other observations

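Genes related to actin but outside the family had counts near the shares of all genes (5.72% higher, 5.14% lower) at an unadjusted p under 0.05 in limma. Of 14 measured actin-related proteins, such as Actr3 of the Arp2/3 complex and Actr1a of dynactin, 1 was higher and 0 lower at an unadjusted p under 0.05 in limma, with a median log2 fold change of 0.09. That gene was Actrt2 (0.31 ± 0.11), with values of 2.40, 2.33 and 2.26 after Htt siRNA, against 1.86, 2.19 and 2.03 with scramble, all below the median gene mean of 2.95. The count was 0 without Htt siRNA replicate 1 or scramble replicate 3, and 2 higher and 1 lower without Htt siRNA replicate 2. In that last setting 1731 of all 22180 genes were higher and 1720 lower, against 1269 and 1140 with all arrays. For 3 of the 14, each Htt siRNA array was above each scramble array, which 10.1% of all genes showed.

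Genes that fold or modify actin had a median of -0.04. Of 18 measured, including the TRiC chaperonin that folds newly made actin, 0 had an unadjusted p under 0.05 in limma, and the smallest p was that of Cct3 (-0.18 ± 0.08). There were 2 higher without Htt siRNA replicate 2, 1 higher without scramble replicate 1 and 1 lower without Htt siRNA replicate 3. Over all 22180 genes these settings gave 1731 higher, 1200 higher and 700 lower, in that order. Each Htt siRNA array was below each scramble array for 4 of the 18, which 5.91% of all genes showed. A probe set annotated to both Actg1 and Gm12739, 17548350, was used in no comparison. It had values of 5.30, 5.14 and 4.99 after Htt siRNA, against 5.34, 5.10 and 5.32 with scramble.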
